A study of Homo sapiens with 12 samples.

Results

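The genes described here are 9 core parts of the machinery that holds cells before DNA replication, namely the cyclin-dependent kinase (CDK) inhibitor genes CDKN1A, CDKN1B, CDKN1C, CDKN2A and CDKN2B, the kinase genes CDK4 and CDK6, the retinoblastoma gene RB1, and MDM2, which encodes the ligase that degrades p53. They were taken by symbol from a table of 57820 genes, and all 9 were present with 1 entry each. RNA was measured in 12 libraries of 2 established human esophageal squamous cell carcinoma (ESCC) lines, KYSE30 and KYSE450, in 4 groups of 3. K30LM3 and K450LM2 were the populations recovered from mouse lung nodules after 3 and 2 rounds of tail vein injection into SCID/Beige mice, while K30 and K450 were the parental cells of each line, and all cells carried luciferase and a G418 resistance marker. Each group was grown in RPMI medium with serum and was 1 cell population, and since the replicates are called biological but no source states that they were cultured apart, every p-value here reflects library-to-library spread only, which may be technical.

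Cells commit to division when cyclin D with CDK4 or CDK6, and then cyclin E with CDK2, phosphorylate the RB protein and so release E2F transcription factors. Inhibitors of the INK4 family, p16INK4a (CDKN2A) and p15INK4b (CDKN2B), bind CDK4 and CDK6 alone, whereas those of the CIP/KIP family, p21 (CDKN1A), p27 (CDKN1B) and p57 (CDKN1C), bind cyclin and CDK complexes more widely. CDKN2A also encodes p14ARF from a separate start, and p14ARF restrains MDM2, which in turn restrains p53, while p53 induces both CDKN1A and MDM2. In ESCC the CDKN2A locus is often deleted or silenced and cyclin D1 is often amplified.

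The starts of these genes are shown because CDKN2A has 2 of them behind a single value in the table, because CDKN2B lies beside it, and because CDKN1A and MDM2 are the best known p53 targets of the group. The sequences are the 250 bases before each start from RefSeq on GRCh38.p14, whereas the submitters name hg19 for the deposited values, and 8 of the 9 genes had an entry, CDKN1C being the exception. The entry of RB1 lies far from the start of that gene and is not shown. Capitals mark GC boxes (GGGCGG on either strand, overlapping matches counted), or in MDM2 a p53 site, which was searched by name as 2 adjoining degenerate half-sites with their central C and G intact and at most 2 mismatches.
CDKN2A, start upstream of the first exon of p14ARF (chr9:21995325-21995574, minus strand): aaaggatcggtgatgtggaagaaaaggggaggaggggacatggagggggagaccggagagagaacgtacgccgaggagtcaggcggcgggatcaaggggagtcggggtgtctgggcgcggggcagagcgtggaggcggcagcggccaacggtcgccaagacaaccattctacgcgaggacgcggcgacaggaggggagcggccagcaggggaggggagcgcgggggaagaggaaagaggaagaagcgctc
CDKN2A, start upstream of the first exon of p16INK4a (chr9:21974858-21975107, minus strand): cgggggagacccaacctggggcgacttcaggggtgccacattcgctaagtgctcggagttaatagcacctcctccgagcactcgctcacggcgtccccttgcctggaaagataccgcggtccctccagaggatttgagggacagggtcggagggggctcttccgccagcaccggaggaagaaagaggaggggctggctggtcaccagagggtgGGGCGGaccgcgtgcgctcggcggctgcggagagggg
CDKN2B (chr9:22009306-22009555, minus strand): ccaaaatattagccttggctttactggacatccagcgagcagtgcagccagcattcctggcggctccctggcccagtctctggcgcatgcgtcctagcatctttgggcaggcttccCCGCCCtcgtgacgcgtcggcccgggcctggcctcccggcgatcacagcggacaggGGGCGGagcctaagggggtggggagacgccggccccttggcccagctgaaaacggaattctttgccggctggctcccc
CDKN1A (chr6:36678464-36678713, plus strand): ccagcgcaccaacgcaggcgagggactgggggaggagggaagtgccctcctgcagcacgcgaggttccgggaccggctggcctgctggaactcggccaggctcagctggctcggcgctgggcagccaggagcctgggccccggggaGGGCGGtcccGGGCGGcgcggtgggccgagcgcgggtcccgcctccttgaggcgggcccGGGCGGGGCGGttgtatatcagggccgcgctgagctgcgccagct
MDM2, downstream of its 2 start regions (chr12:68808767-68809016, plus strand): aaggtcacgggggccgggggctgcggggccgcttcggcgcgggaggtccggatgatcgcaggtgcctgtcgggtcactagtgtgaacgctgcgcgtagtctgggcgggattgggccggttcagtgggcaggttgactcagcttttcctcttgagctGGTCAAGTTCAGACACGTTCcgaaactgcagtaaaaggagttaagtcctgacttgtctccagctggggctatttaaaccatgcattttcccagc

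All 5 windows held more CG dinucleotides (24, 20, 18, 27 and 17) than the median of 11 over the 35093 RefSeq promoter windows of this length. GC boxes were found in 42.6% of all windows, and numbered 0 and 1 at the starts of CDKN2A, 2 at CDKN2B and 4 at CDKN1A, where the last pair shares 1 base. A p53 site by this definition was found in 0.242% of all windows, and 1 stood in the MDM2 window and 0 in that of CDKN1A. Sites more than 250 bases before a start were not searched. CDK4, whose window is not shown, held 3 copies of the E-box CACGTG, a motif present in 6.34% of windows. These matches describe letters only and were not tested for binding.

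The table gives FPKM, a unit corrected for the length of each transcript and the size of each library, so that levels may be set side by side between genes. Depth was not given and was estimated at 21.5 to 29.5 M fragments per library from the steps between the lowest values. Pearson correlations of log2 levels between libraries were 0.98 to 0.99 within groups and 0.74 to 0.97 between groups. Epithelial markers were present in both lines (CDH1 averaged 129 FPKM in K30LM3, 112 in K30, 71.6 in K450LM2 and 64.1 in K450), but the summed level of 12 squamous markers was 829 to 869 in K30LM3 and 787 to 826 in K30, against 11334 to 11821 in K450LM2 and 12364 to 12878 in K450. Within the KYSE30 pair, 3 of these 12 markers were upregulated in K30LM3 and 2 downregulated, beside 2.61% and 5.78% of all genes. The squamous keratin KRT5 averaged 15.96 FPKM in K30LM3 and 0.10 in K30, whereas TP63 averaged 8.37 in K30LM3 and 22.1 in K30. SOX2 averaged 7.12 FPKM in K30LM3 and 22.5 in K30. Markers of fibroblasts, endothelium and leukocytes summed to at most 12.5 FPKM in any library, with PTPRC, which defines leukocytes, averaging at most 0.14. The fibroblast marker LUM was upregulated in K450LM2, at 2.21 FPKM against 0.57 in K450 (adjusted p = 0.000634). The lung epithelium markers summed to 37.5 to 40.9 FPKM in K450LM2 and 95.2 to 98.8 in K450, mostly from SCGB1A1, which was downregulated (23.9 FPKM in K450LM2 and 82.7 in K450, log2 fold change -1.79, adjusted p = 3.55e-06), while the surfactant gene SFTPC was at or near 0 in all groups. The part of these markers in the changes of the 9 genes was not tested.

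Across the 9 genes, levels ran from a listed 0 for CDKN2A in the KYSE450 line to 296 FPKM for CDK4 in the same line (the plot of levels by library). Each selected population was compared with its parental cells, and the lines with each other, by limma on log2(FPKM + 0.1), with Benjamini-Hochberg adjusted p-values over all genes tested. A gene was tested where at least 3 of the libraries compared had 1 FPKM, and called at an adjusted p under 0.05 and a fold change over 2. Upregulated and downregulated are used for called genes, and higher or lower for those past the p alone. With 3 libraries a side, the smallest p of an exact two-sided permutation test is 0.1, so none was used and the spread was pooled over genes.

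**Figure D1:**
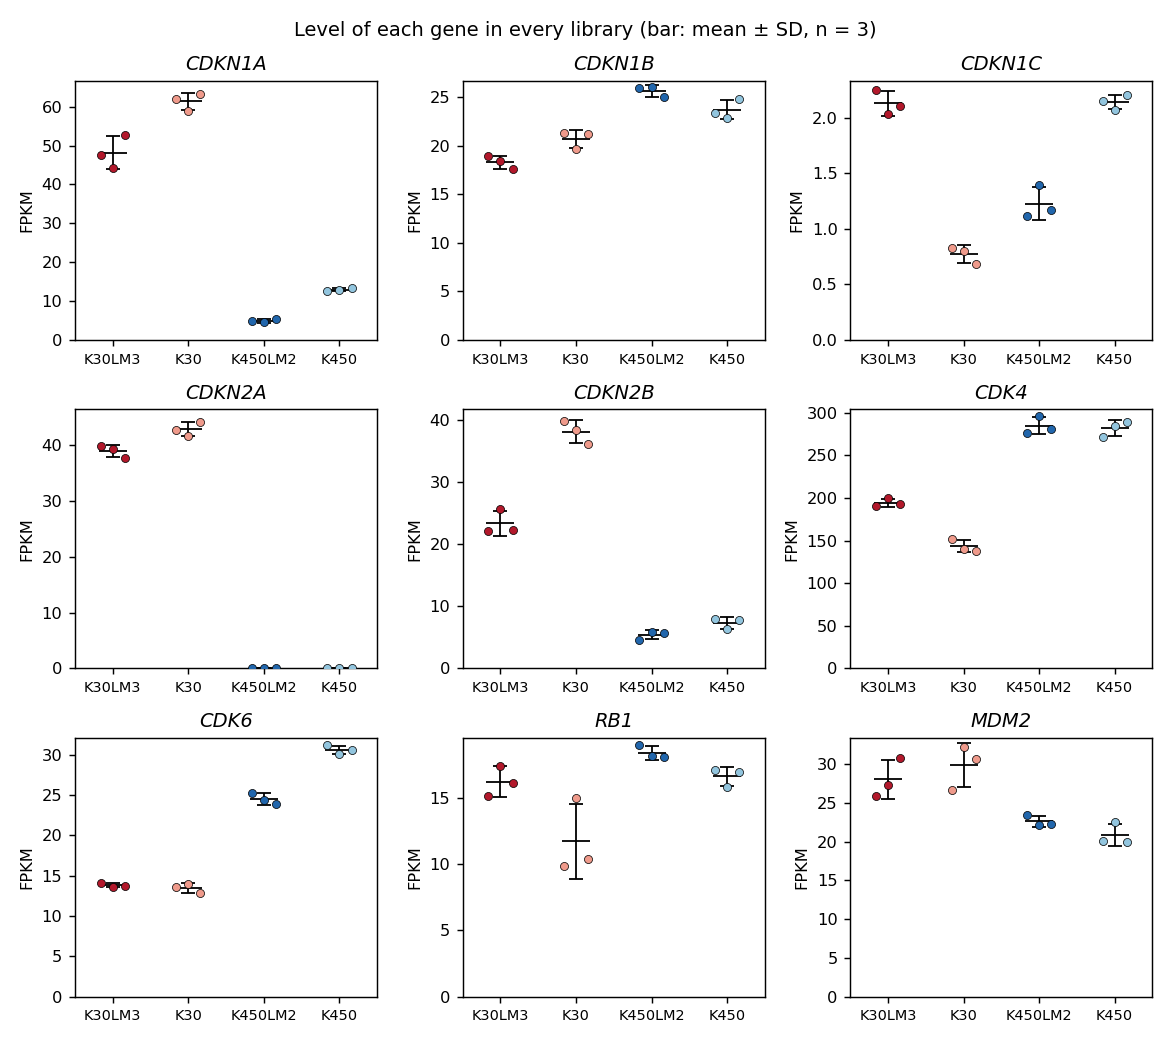
Level in FPKM (vertical axes, from 0) of each of the 9 genes in K30LM3, K30, K450LM2 and K450 cells, with 1 point per library and bars for mean ± SD (n = 3). CDKN2A lies at about 40 FPKM in K30LM3 and K30 and at 0 to 0.05 in K450LM2 and K450, and CDKN1C is above K30 in K30LM3 and below K450 in K450LM2.

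In the KYSE30 line, 1 of the 9 genes was upregulated in K30LM3 over K30 and 0 were downregulated, beside 2.61% of all 14197 genes tested that were upregulated and 5.78% that were downregulated. The upregulated gene, CDKN1C, was under 1 FPKM in all K30 libraries and so entered the test only through K30LM3, where it was higher. At the adjusted p alone, 3 of the 9 genes were higher and 4 lower, against 27.3% and 33.4% of all genes, and 2 passed in neither direction. In the KYSE450 line 0 of 8 tested genes were upregulated and 1 was downregulated in K450LM2 over K450, beside 2.00% and 1.27% of 13819 genes. These counts over all genes moved when a library was left out and 3 libraries at 1 FPKM were still required. The 371 upregulated genes in K30LM3 became 238 to 243 without 1 K30LM3 library, and the 820 downregulated became 531 to 582 without 1 K30 library, against 379 to 384 and 807 to 892 where 2 libraries at 1 FPKM were required. The 277 upregulated genes in K450LM2 became 165 to 177 without 1 K450LM2 library, and the 176 downregulated became 111 to 112 without 1 K450 library. At the adjusted p alone 0 were higher and 4 were lower, against 14.3% and 9.82% of all genes. The median log2 fold change of the 9 genes was -0.090 in K30LM3 over K30, against -0.054 over all genes, and -0.15 for the 8 tested in K450LM2 over K450, against 0.024. With quantile normalization the genes called in K30LM3 were 485 upregulated and 549 downregulated, against 371 and 820 in the values as deposited, and the direction of every gene among the 9 but CDK4 in K450LM2 over K450 was unchanged.

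CDKN1A, which encodes the p53-induced inhibitor p21, was the gene downregulated in K450LM2. It had 4.78, 4.49 and 5.36 FPKM in K450LM2, against 12.6, 12.8 and 13.3 FPKM in K450. All 3 K450LM2 libraries were far below all 3 of K450. In such bulk libraries fewer expressing cells and less RNA per cell cannot be told apart. The fall was 2.62-fold (log2 fold change -1.39 ± 0.08, SE, adjusted p = 1.59e-05 by limma), and it stayed between -1.46 and -1.24 on the log2 scale under all 16 alternatives. In the KYSE30 line CDKN1A had 47.7, 44.2 and 52.7 FPKM in K30LM3, against 61.9, 59.0 and 63.4 FPKM in K30. The groups did not overlap there either, but the K30LM3 libraries were lower by a smaller step (-0.35 ± 0.06, adjusted p = 0.00194) that did not reach the fold threshold. The 2 changes differed, with the one in K30LM3 over K30 exceeding that in K450LM2 over K450 by 1.04 ± 0.10 (adjusted p = 9.74e-06 for the interaction term of a limma fit over 12 libraries). This difference lost its call, though not its p, with a pseudocount of 1 (0.90), with quantile normalization (0.97), without K30LM3 library 3 (0.97) and without K450LM2 library 2 (0.98), being close to the threshold of 1.

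CDKN1C, which encodes p57, the inhibitor expressed from the maternal copy of an imprinted cluster on chromosome 11, was the gene upregulated in K30LM3. It had 2.25, 2.03 and 2.10 FPKM in K30LM3, against 0.83, 0.80 and 0.68 FPKM in K30. The libraries of K30LM3 all lay above 2 FPKM and those of K30 all under 1. The gene thus met the filter only through the group in which it was higher, and its call rests on that. The rise was 2.56-fold (log2 fold change 1.36 ± 0.17, adjusted p = 0.000259). In K450LM2 the gene had 1.11, 1.39 and 1.17 FPKM, against 2.15, 2.07 and 2.20 FPKM in K450. Here the selected cells were the lower ones, without overlap, by -0.76 ± 0.15 (adjusted p = 0.00777), under the fold threshold. K30LM3 and K450 thus covered the same range of levels, as the libraries of both overlapped. The changes in the 2 lines differed by 2.12 ± 0.18 (adjusted p = 2.78e-06), and by 1.32 to 2.51 in the 20 alternatives that could test it. At such low levels the size of a change depends on the pseudocount, and with 1 in place of 0.1 the rise in K30LM3 was 0.82 and no longer called. Leaving out K30LM3 library 1, 2 or 3 left 0 genes of the 9 called, since only 2 libraries then had 1 FPKM. With 2 such libraries required, an alternative added after the data had been seen, the rise was 1.32, 1.39 and 1.37 without library 1, 2 and 3 of K30LM3 and was called each time.

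CDKN1B, which encodes p27, an inhibitor controlled largely through protein breakdown, moved least of the 4 inhibitor genes tested in the KYSE450 line. It had 18.9, 18.4 and 17.6 FPKM in K30LM3, against 21.3, 19.6 and 21.3 FPKM in K30. It had 25.9, 26.1 and 25 FPKM in K450LM2, against 23.4, 22.9 and 24.8 FPKM in K450. The libraries of each pair did not overlap, yet the steps were small and pointed in opposite directions. The log2 fold change was -0.18 ± 0.05 in K30LM3 over K30 (adjusted p = 0.0228, under 0.05 in 11 of 16 alternatives) and 0.11 ± 0.05 in K450LM2 over K450 (adjusted p = 0.137). The difference between them was -0.29 ± 0.07 (adjusted p = 0.00430).

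The INK4 genes CDKN2A and CDKN2B separated the lines more than the populations within a line. CDKN1A did so too, with log2 fold changes of -2.24 (K450 over K30) and -3.28 (K450LM2 over K30LM3). Within the lines those of CDKN1A were -0.35 (K30LM3 over K30) and -1.39 (K450LM2 over K450). CDKN2A, whose value merges the p16INK4a and p14ARF transcripts, had 39.8, 39.4 and 37.7 FPKM in K30LM3, against 42.8, 41.7 and 44.2 FPKM in K30. In the KYSE450 line it was listed at 0 in all 3 K450LM2 libraries, against 0, 0.05 and 0 FPKM in K450. The gene was thus present in every KYSE30 library and at or next to 0 in every KYSE450 library, before and after selection. Its log2 fold change in K30LM3 over K30 was -0.14 ± 0.04 (adjusted p = 0.0203, under 0.05 in 12 of 16 alternatives), and it was not tested between K450LM2 and K450.

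CDKN2B, which encodes p15INK4b and is induced by TGF-β in epithelial cells, had 22.2, 25.7 and 22.3 FPKM in K30LM3, against 39.8, 38.4 and 36.2 FPKM in K30. It had 4.59, 5.94 and 5.75 FPKM in K450LM2, against 8.02, 6.27 and 7.73 FPKM in K450. The selected cells were lower without overlap in both lines, with a narrow gap in KYSE450. The log2 fold change was -0.71 ± 0.07 in K30LM3 over K30 (adjusted p = 6.36e-05), and -0.43 ± 0.13 in K450LM2 over K450 (adjusted p = 0.0464), where it stayed under 0.05 in 8 of 16 alternatives and was 0.139 without K450 library 1. The changes in the 2 lines did not differ past the threshold (difference -0.28 ± 0.16, adjusted p = 0.171).

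**Figure D2:**
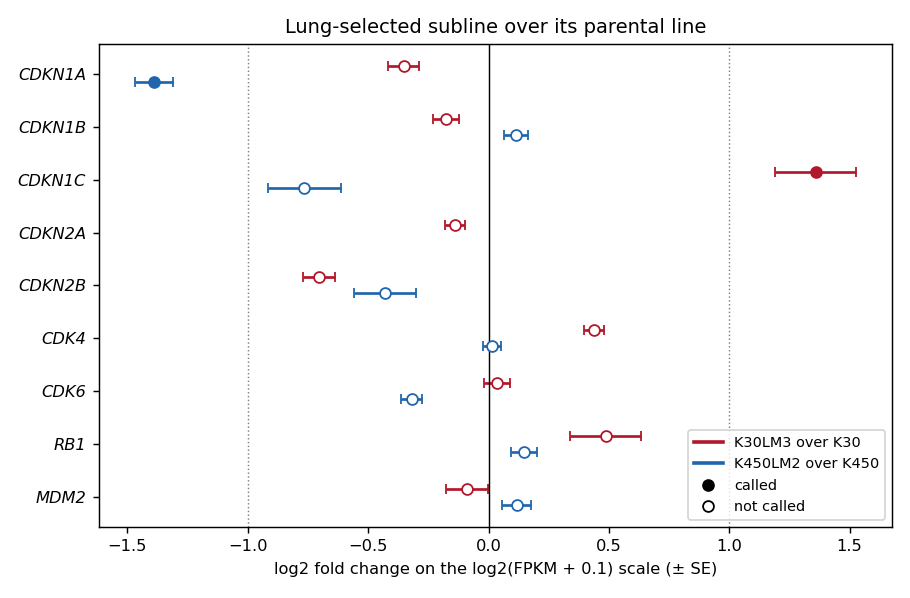
Log2 fold change (horizontal axis, on the log2(FPKM + 0.1) scale, bars ± SE) of each gene in K30LM3 over K30 (red) and K450LM2 over K450 (blue), with filled points for called genes and dotted lines at a 2-fold change. The filled points are CDKN1C in K30LM3 (1.36) and CDKN1A in K450LM2 (-1.39), and CDKN2A has no point for K450LM2, where it was not tested.

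Some neighbours of CDKN2A and CDKN2B on chromosome 9, such as MTAP, were expressed in both lines. MTAP, which encodes a methionine salvage enzyme and is often lost together with CDKN2A in tumours, had 81.8, 79.0 and 78.5 FPKM in K450LM2, against 69.2, 66.8 and 65.1 FPKM in K450. It had 23.4, 24.9 and 23.6 FPKM in K30LM3, against 19.5, 20.5 and 18.7 FPKM in K30. MTAP was therefore highest in the line in which CDKN2A was at or next to 0, and its K450 over K30 log2 fold change was 1.77 (adjusted p = 2.91e-08). This was not particular to MTAP. Of 11 tested genes listed around CDKN2A and CDKN2B, 6 were upregulated and 1 downregulated in K450 over K30, beside 13.3% and 21.9% of all genes. All 10 tested in K450LM2 over K30LM3 were upregulated, beside 14.2% of all genes. These counts depend in part on the filter. In K450LM2 over K30LM3, DMRTA1 and IFNE reached 1 FPKM only in K450LM2, and CDKN2B-AS1, listed at 0 in K450LM2, was not tested. In K450 over K30, CDKN2B-AS1 was the 1 downregulated and reached 1 FPKM only in K30, while DMRTA1 reached it only in K450. CDKN2B-AS1, the antisense transcript ANRIL, overlaps both CDKN2A and CDKN2B and followed CDKN2A. It had 0.97, 0.70 and 1.38 FPKM in K30LM3, against 1.31, 2.26 and 1.54 FPKM in K30, and 0 in 3 K450LM2 libraries, against 0.02, 0 and 0 FPKM in K450. Reads of CDKN2A or CDKN2B and of this antisense partner may not be separable. The library kit kept strand, but the sources do not say whether strand was used in counting. DMRTA1, on the other side, averaged 1.43 FPKM in K450LM2 and 2.05 in K450. Copy number and DNA methylation were not measured, so a missing gene and a silent one cannot be told apart here.

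**Figure D3:**
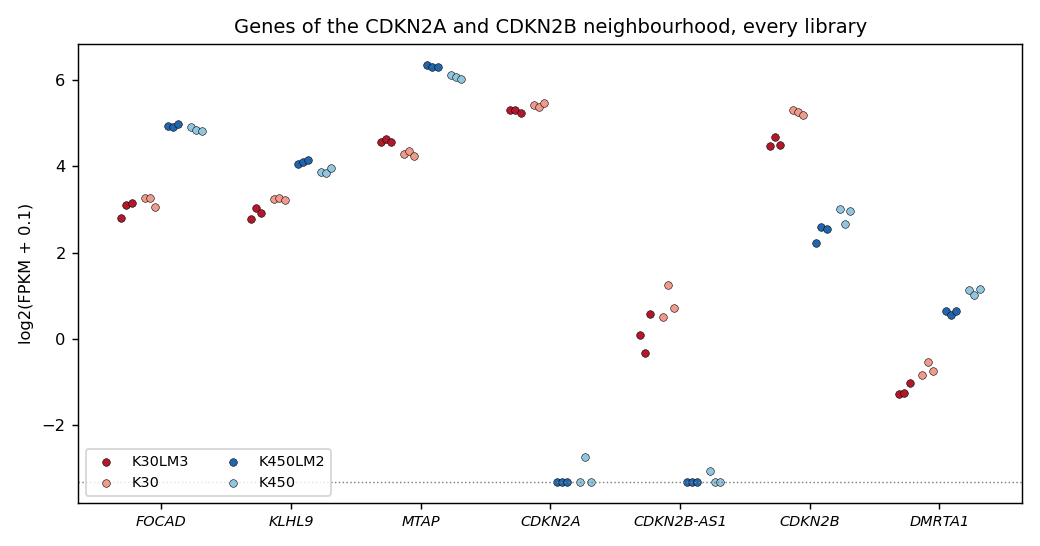
Levels on the log2(FPKM + 0.1) scale (vertical axis) of 7 genes around CDKN2A in chromosome order, with 1 point per library for K30LM3, K30, K450LM2 and K450. The dotted line marks 0 FPKM, on which CDKN2A and CDKN2B-AS1 lie in all but 1 KYSE450 library each, while MTAP and FOCAD on one side and CDKN2B and DMRTA1 on the other stand above it in all 12.

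Of the 2 kinases that phosphorylate RB after cyclin D binding, CDK4 was the most abundant transcript of the 9 in every group. It had 190.1, 199.9 and 193 FPKM in K30LM3, against 152, 140.4 and 138 FPKM in K30, and the groups did not overlap. The libraries of K30LM3 were higher by 0.44 ± 0.04 on the log2 scale (adjusted p = 5.96e-05), a 1.36-fold step under the fold threshold. In the other line CDK4 had 277, 296 and 281 FPKM in K450LM2, against 272, 284 and 289.7 FPKM in K450. These libraries overlapped, with a log2 fold change of 0.014 ± 0.038 (adjusted p = 0.831) whose sign turned with the scaling. The changes in the 2 lines differed by 0.43 ± 0.06 (adjusted p = 0.000107), under the threshold for a call.

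For CDK6 the step that passed the p was in the KYSE450 line. It had 14.1, 13.7 and 13.7 FPKM in K30LM3, against 13.6, 13.97 and 12.8 FPKM in K30, with overlapping libraries and a log2 fold change of 0.036 ± 0.055 (adjusted p = 0.588). It had 25.3, 24.3 and 23.9 FPKM in K450LM2, against 31.1, 30.1 and 30.5 FPKM in K450, with no overlap. The K450LM2 libraries were lower by -0.32 ± 0.04 (adjusted p = 0.00137), and the difference between the lines was 0.36 ± 0.06 (adjusted p = 0.000519). Both kinase genes thus changed by less than 1.5-fold in either line, CDK4 passing the p in KYSE30 and CDK6 in KYSE450.

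RB1, which encodes the pocket protein that holds E2F factors inactive, had 15.1, 17.4 and 16.1 FPKM in K30LM3, against 9.87, 14.98 and 10.4 FPKM in K30. K30 library 2 stood apart from its 2 fellows and reached almost to the lowest K30LM3 library. The log2 fold change was 0.49 ± 0.15 (adjusted p = 0.0222), and the p stayed under 0.05 in 11 of 16 alternatives, with 0.67 (adjusted p = 0.000382) without K30 library 2 and 0.38 (adjusted p = 0.0703), 0.41 (adjusted p = 0.0727) and 0.43 (adjusted p = 0.0639) without K30 library 1, K30 library 3 and K30LM3 library 2. In KYSE450, RB1 had 19, 18.1 and 18.1 FPKM in K450LM2, against 17.1, 15.8 and 16.9 FPKM in K450. These did not overlap, but the step of 0.15 ± 0.05 did not pass (adjusted p = 0.0880). RB1 was thus transcribed in every library of both lines, and the phosphorylation of its protein was not measured.

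MDM2, the p53 ligase gene and itself a p53 target, had 25.9, 27.3 and 30.8 FPKM in K30LM3, against 26.7, 32.2 and 30.7 FPKM in K30. It had 23.4, 22.2 and 22.2 FPKM in K450LM2, against 20.1, 22.6 and 19.97 FPKM in K450. The libraries overlapped in both lines. Neither change passed, at -0.090 ± 0.087 (adjusted p = 0.398) in K30LM3 over K30 and 0.12 ± 0.06 (adjusted p = 0.211) in K450LM2 over K450, and they did not differ past the threshold (-0.21 ± 0.11, adjusted p = 0.155). Over the 9 genes, 2 of the differences between the lines' changes were called, those of CDKN1A and CDKN1C, beside 12.3% of all 15488 genes.

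The parental lines themselves differed by more. In K450 over K30, 2 of the 9 genes were upregulated and 3 downregulated, beside 13.3% and 21.9% of all 14778 genes (1966 and 3237, which became 1246 to 1260 upregulated without 1 K450 library and 2106 to 2165 downregulated without 1 K30 library). CDKN1A was 4.73-fold lower in K450 (log2 fold change -2.24 ± 0.04) and CDKN2B 5.17-fold lower (-2.37 ± 0.10), and CDKN2A was downregulated as well, for which no fold is given because K450 was at or next to 0. CDKN1C was 2.58-fold higher in K450 (1.37 ± 0.13, but 0.83 and not called with a pseudocount of 1) and CDK6 2.26-fold higher (1.18 ± 0.05). CDKN1C entered this test only through the K450 libraries, and CDKN2A only through those of K30. CDK4 was 1.97-fold higher, just under the threshold, and was called with median centering and without library 1 of K30 or of K450. The other 3 genes differed by -0.51 (MDM2), 0.52 (RB1) and 0.19 (CDKN1B). In K450 the median log2 fold change of all genes over K30 was -0.14, against 0.050 with quantile normalization and 0.094 with median centering, and all 5 called fold changes were larger than these shifts. The share of upregulated genes among those called was 37.8%, against 49.3% and 50.1% with these scalings.

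Between the selected populations, K450LM2 over K30LM3, 0 of the 9 genes were upregulated and 3 were downregulated, beside 14.2% and 16.6% of all 14507 genes (2057 and 2406, which became 1213 to 1242 upregulated without 1 K450LM2 library and 1608 to 1633 downregulated without 1 K30LM3 library). CDKN1A was 9.70-fold lower in K450LM2 (-3.28 ± 0.09) and CDKN2B 4.27-fold lower (-2.09 ± 0.11), and CDKN2A was downregulated to a listed 0 in K450LM2. CDKN1C was lower in K450LM2 (-0.76 ± 0.13), whereas in the parental pair it was higher in K450. CDK6 (0.82), CDK4 (0.55), CDKN1B (0.48) and RB1 (0.18) were higher and MDM2 (-0.30) was lower, all under the fold threshold. The adjusted p of RB1 stayed under 0.05 in 10 of 16 alternatives and that of MDM2 in 15 of 16. CDKN2A entered this test only through the K30LM3 libraries.

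The order of the 4 groups by level is given for each gene as a description. How often the 4 groups stand apart over all genes was not counted. CDKN1A and CDKN2B were both highest in K30, then in K30LM3, K450 and K450LM2 with no overlap between neighbours. In CDKN1B the order was K450LM2, K450, K30 and K30LM3, also with no overlap. The neighbours that overlapped were K450 and K30LM3 for CDKN1C and for RB1, K450LM2 and K450 for CDK4, K30LM3 and K30 for CDK6, and both pairs within a line for MDM2. In CDKN2A only the KYSE450 groups overlapped.

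The other genes of the pathway were followed in 7 lists, summarised in the plot of pathway lists. Their counts stand beside 27.3% of all genes higher and 33.4% lower at the adjusted p in K30LM3 over K30, and 14.3% and 9.82% in K450LM2 over K450. Among 7 other genes listed by their CDKN or CDK symbols, 5 were higher in K30LM3 at the adjusted p and 0 lower. The 2 that were upregulated, beside 2.61% of all genes, were CDKN2D and CDK2AP1. The list includes CDKN2AIP and CDKN2AIPNL, named for a partner of the CDKN2A product, so its counts are not of CDK inhibitors alone. CDKN2AIP was among the higher genes in both lines (0.29 in K30LM3 and 0.35 in K450LM2). CDKN2D, which encodes p19INK4d, had 9.99, 9.64 and 10.96 FPKM in K30LM3, against 4.69, 4.66 and 4.95 FPKM in K30 (log2 fold change 1.08 ± 0.08, adjusted p = 1.42e-05), so this INK4 gene moved opposite to CDKN2B. CDK2AP1, which encodes a CDK2-associated protein, was at 120.3 ± 1.5 FPKM in K30LM3 and 59.9 ± 1.4 in K30 (1.00 ± 0.03, SD for levels, n = 3). In K450LM2, 5 of these 7 were higher and 0 lower at the adjusted p, with 0 called in either direction and a median log2 fold change of 0.26.

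The 20 proliferation markers were all higher in K30LM3 over K30 at the adjusted p, with a median log2 fold change of 0.75 against -0.054 over all genes, and FOXM1, the mitotic transcription factor, was the 1 called (72.4 ± 1.4 FPKM in K30LM3 and 33.4 ± 0.9 in K30, SD, n = 3). Their summed level was 2432 to 2491 FPKM in K30LM3, against 1491 to 1530 in K30. In K450LM2, 3 were higher and 2 lower, with a median of 0.045 and sums of 2055 to 2104 FPKM, against 2017 to 2048 in K450. Proliferation markers thus stood apart in the KYSE30 pair only, whereas CDKN1A and CDKN2B were lower in the selected cells of both lines. The log2 fold changes of CDKN1A were -0.35 in K30LM3 over K30 and -1.39 in K450LM2 over K450. Those of CDKN2B were -0.71 and -0.43. CDKN1C was higher in K30LM3 and lower in K450LM2. The part of the proliferation markers in the changes of the 9 genes was not tested.

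Of 12 tested G1 cyclin and kinase genes, 8 were higher and 1 was lower in K30LM3 at the adjusted p, beside 27.3% and 33.4% of all genes, and 0 were called. Of 14 tested in K450LM2, 0 were higher, 1 was lower and 0 were called. Of 16 RB family, E2F and partner genes, 12 were higher and 3 lower in K30LM3, E2F8, an atypical E2F that represses transcription, being the 1 upregulated (8.62 ± 0.54 FPKM in K30LM3 and 3.87 ± 0.40 in K30, SD, n = 3). In K450LM2, 0 were higher and 1 lower. RBL1, the gene for the pocket protein p107, averaged 5.22 FPKM in K30LM3 and 3.46 in K30 by its main entry, and a second entry under the same symbol, near 0, was not tested. The D-type cyclins that pair with CDK4 and CDK6 are given as an example chosen after the values were seen, and CCND1 and CCND2 differed between the lines more than CCND3. CCND1 averaged 41.4 ± 2.7 FPKM in K450LM2 and 45.5 ± 4.0 in K450, against 175.8 ± 4.5 in K30LM3 and 97.6 ± 4.3 in K30. CCND2 averaged 7.74 ± 0.34 FPKM in K450LM2 and 9.63 ± 0.28 in K450, and was listed at 0 to 0.01 in all 6 KYSE30 libraries. CCND3 averaged 18.2 ± 0.6 FPKM in K450LM2 and 17.1 ± 0.4 in K450, against 27.3 ± 1.7 in K30LM3 and 20.8 ± 0.6 in K30, with a K450 over K30 log2 fold change of -0.28.

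The p53 side was examined through 15 regulators and 36 target genes that had an entry. Among the regulators 6 were higher and 4 lower in K30LM3 and 1 was higher and 1 lower in K450LM2, with 0 called. Of the 33 targets tested in K30LM3, 14 were higher and 9 lower at the adjusted p, beside 27.3% and 33.4% of all genes, so that the share that was lower did not exceed that of all genes. Of these 9, 3 were downregulated, beside 5.78% of all genes, and 0 targets were upregulated. TP53INP1, which promotes apoptosis and autophagy, had 2.55, 3.32 and 3.68 FPKM in K30LM3, against 10.0, 10.5 and 11.8 FPKM in K30 (-1.74 ± 0.14, adjusted p = 2.44e-05). BTG2, an antiproliferative gene, had 15.3, 15.02 and 16.3 FPKM in K30LM3, against 44.7, 44.0 and 47.4 FPKM in K30 (-1.54 ± 0.05, adjusted p = 4.88e-07). BBC3, which encodes the pro-apoptotic protein PUMA, had 5.79, 6.47 and 6.97 FPKM in K30LM3, against 15.9, 14.3 and 17.4 FPKM in K30 (-1.30 ± 0.10, adjusted p = 1.73e-05). In K450LM2, where CDKN1A fell, 1 of 32 targets was higher and 5 were lower at the adjusted p and 0 were called, with a median log2 fold change of -0.047 against 0.024 over all genes. These genes have other regulators besides p53, and the activity of p53 was not measured.

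Of 12 tested entries for genes acting on p27 and p57 (11 genes, CKS1B having 2 entries), 6 were higher and 2 lower in K30LM3, beside 27.3% and 33.4% of all genes, and FOXO4, a forkhead factor that can induce CDKN1B, was downregulated (3.48 ± 0.48 FPKM in K30LM3 and 9.29 ± 0.95 in K30, log2 fold change -1.40 ± 0.12). In K450LM2, 3 were higher and 1 lower, beside 14.3% and 9.82% of all genes, with 0 called, and FOXO4 was among the higher ones (0.43, adjusted p = 0.0380).

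**Figure D4:**
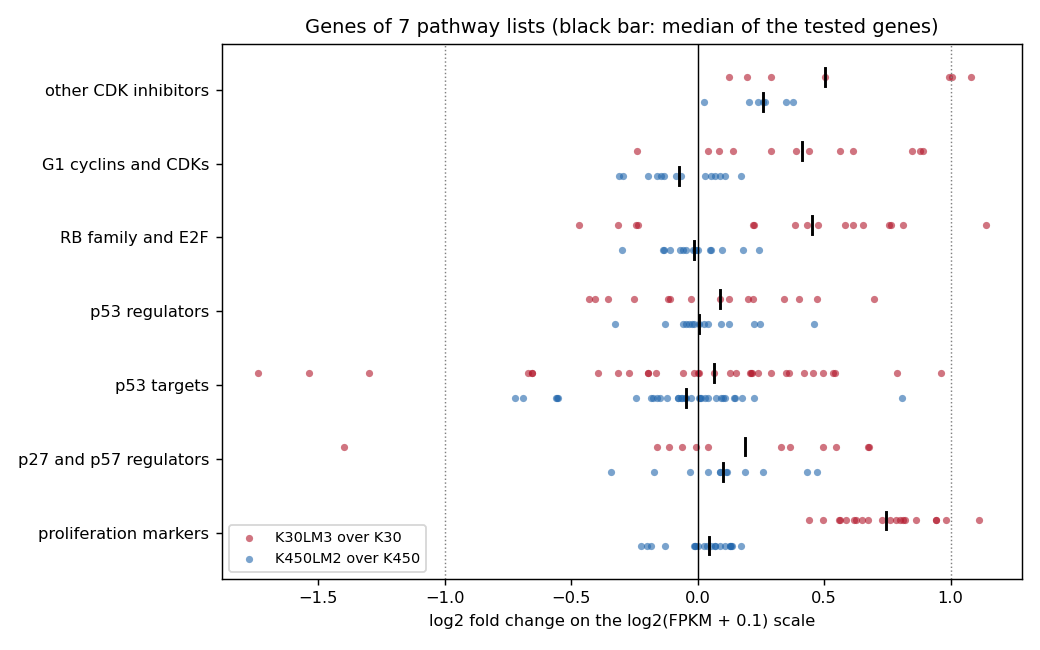
Log2 fold change (horizontal axis) of the tested genes of 7 lists in K30LM3 over K30 (red) and K450LM2 over K450 (blue), 1 point per gene, with black bars for medians and dotted lines at a 2-fold change. All 20 proliferation markers lie right of 0 in K30LM3, with a median of 0.75, while those of K450LM2 lie about 0, with a median of 0.045.

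Some chromosomal neighbours of the other genes changed as well. H19, the imprinted noncoding RNA of the chromosome 11 cluster, was downregulated in both lines, with 232 ± 2.9 FPKM in K30LM3 and 601 ± 17.8 in K30, and 21.2 ± 0.7 FPKM in K450LM2 and 177.7 ± 0.4 in K450 (SD, n = 3). PHLDA2, an imprinted gene near CDKN1C that is also expressed from the maternal copy, took the same directions as CDKN1C, with log2 fold changes of 1.16 ± 0.09 in K30LM3 over K30 (adjusted p = 2.07e-05) and -0.44 ± 0.06 in K450LM2 over K450 (adjusted p = 0.00192). SLC22A18, which lies nearer to CDKN1C than PHLDA2 does, went the other way in K30LM3, where it was downregulated (-1.18 ± 0.15, adjusted p = 0.000260), and did not pass in K450LM2 (-0.13). IGF2 in the same cluster was lower in K30LM3 (-0.65, adjusted p = 0.00187). TSPAN31, whose gene overlaps the end of CDK4, was downregulated in K30LM3 (8.95 ± 0.81 FPKM in K30LM3 and 22.0 ± 1.1 in K30) while CDK4 was higher, and METTL1 was higher (0.61) and METTL21B lower (-0.72). CPM, which overlaps MDM2, was downregulated in both lines (-1.01 ± 0.24 in K30LM3 and -1.22 ± 0.20 in K450LM2), while MDM2 did not pass in either. Reads in such overlaps may be split between the genes.

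The other neighbours that come first in each list were under the fold threshold. Beside CDKN1A, SRSF3 and PPIL1 were lower in K450LM2 over K450 by -0.13 and -0.36 at the adjusted p, and STK38 did not pass (0.12). Of 7 tested genes listed around CDKN1A, 4 were lower there and 0 higher at the adjusted p, beside 9.82% and 14.3% of all genes. Their median log2 fold change was -0.19, against 0.024 over all genes, and 0 were called. The part of the region in the fall of CDKN1A was not tested. Beside CDKN1B, DDX47 was higher in both lines (0.12 in K30LM3 and 0.24 in K450LM2), APOLD1 in K30LM3 (0.48) and GPR19 in K450LM2 (0.98). Beside MDM2, NUP107 was higher in K30LM3 (0.58). Beside RB1, ITM2B was lower in both (-0.41 in K30LM3 and -0.60 in K450LM2), while LPAR6, whose gene lies within RB1, was higher in K450LM2 (14.7 ± 1.9 FPKM in K450LM2 and 7.51 ± 0.49 in K450, SD, n = 3). Beside CDK6, GATAD1 was lower in K30LM3 (-0.66) and did not pass in K450LM2. The other called genes of the neighbour lists, given for completeness after their values were seen, were in K30LM3 OSBPL5 (1.26) near CDKN1C, B4GALNT1 (2.77) and AVIL (-1.30) near CDK4, CALCR (-1.45) and SAMD9L (-1.06) near CDK6, and MLLT3 (-1.40) and IFNE (-1.30) near CDKN2A, and in K450LM2 GPRC5A (1.48) near CDKN1B.

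As a description of pattern, the genes most like each member were sought over the 12 libraries among 10080 genes averaging at least 5 FPKM. The libraries form 4 groups, so that these correlations of log2 levels rest largely on group differences and carry no test. CDKN1A was most like ITGA2 and METRNL (Pearson r of 0.9965 and 0.996), CDKN2A most like MAGEB2 and MAGEA10 (0.9993 for both), and CDKN2B most like TNC and SIRT5 (0.9956 and 0.995). CDKN1C was most like SLC29A1 and YWHAG (0.9809 and 0.9804), and CDKN1B most like NDUFB8 and DENND6A (0.9815 and 0.9796). CDK4 was most like H2AFX and MRPL4 (0.996 and 0.9956), and CDK6 most like RAPGEF5 and TANC1 (0.9966 and 0.9964). RB1 and MDM2 had the weakest likeness, with HAUS3 and TFG (0.9554 and 0.9525) and with TCP11L2 and ATG13 (0.9677 and 0.9631).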

How the data were processed

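RNA of KYSE30 and KYSE450 cells was made into 12 poly(A) libraries with a directional kit. Per the labels, the study's methods and the submitters' processing notes, alignment was by STAR 2.5.1b, build hg19 is named, and RSEM 1.2.29, FastQC, edgeR 3.8.5 and Trimmomatic 0.36 are named too. The authors deposited FPKM with 2 decimals, and no count table was used here. No scaling between libraries is named, and 0 columns of other samples were present. Groups came from the sample titles and cell line labels.

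limma 3.58.1 in R 4.3.3 was run with a trended prior on log2(FPKM + 0.1), each comparison fitted on its own 6 libraries and the difference of the changes on all 12, with two-sided Benjamini-Hochberg adjusted p-values over all genes tested. Fold changes on this scale understate those of low genes. Depth was estimated with an assumed fragment length of 210 bases and is approximate. The procedure was tested on simulated data.

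The members and gene lists were chosen with earlier results of these data known. All 9 members are named. From each of the 7 pathway lists, up to 4 called genes per direction and line were named by size of change, if they averaged at least 2 FPKM in the higher group, and from each of the 8 neighbour lists up to 3 tested genes in list order. For likeness, the 2 genes with the highest Pearson r were named. CCND1, CCND2, CCND3 and the called neighbours beyond the first 3 of a list fall outside this rule, and 1 neighbour that it names is not reported here. Cell type lists covered 5 kinds of cell. Gene overlap was read from RefSeq on GRCh38.p14, and promoter windows from the same source, without the bases after the start.

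Alternatives dropped each library in turn, lowered the fold threshold to 1.5, set the pseudocount to 1 or 0.01, removed the filter or raised it to 5 FPKM, scaled the libraries by quantiles or medians, added a replicate block, left out the trend, or fitted the 12 libraries together. Leaving out a library with 2 in place of 3 libraries required at 1 FPKM was added after the data had been seen, for K30LM3 over K30.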

Additional observations from a re-analysis of the deposited data

Results flagged for a closer look

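2 of the 9 genes drew attention because their changes under selection differed between the lines by the interaction test over 12 libraries. For CDKN1C the log2 change in K30LM3 over K30 minus that in K450LM2 over K450 was 2.12 (adjusted p = 2.78e-06, limma), with all 3 K30LM3 libraries above all K30 libraries and all 3 K450LM2 libraries below all K450 libraries. For CDKN1A it was 1.04 (adjusted p = 9.74e-06), with the selected libraries below the parental ones in both lines and the larger fall in K450LM2. The rounds of selection, 3 in K30LM3 and 2 in K450LM2, differ along with the line and cannot be told apart from it.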

How the results depend on the processing

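Of the values under the alternatives, 718 of the fold changes of the 9 genes kept their direction and their side of the threshold, 6 turned sign, 6 lost a call and 8 gained one. Members called in K30LM3 over K30 numbered 1 as reported, 0 with a pseudocount of 1 or a minimum of 5 FPKM, 2 at a fold threshold of 1.5 and 0 to 1 with a library left out. In K450LM2 over K450 they numbered 1, or 2 at 1.5-fold, and in K450LM2 over K30LM3 3, or 5 at 1.5-fold. For the difference of the changes they numbered 2 as reported, 1 with a pseudocount of 1, with a minimum of 5 FPKM or with quantile normalization, and 1 to 2 with a library left out. CDKN1C is too low to be tested at 5 FPKM.

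CDK4 in K450LM2 over K450 was 0.014 as reported and turned to -0.051 with quantile normalization and -0.014 with median centering, and ran from -0.014 to 0.034 with a library left out, turning without K450 library 1 or K450LM2 library 2. CDKN2A in the difference of the changes turned to -0.11 with a pseudocount of 1 and ran from -0.14 to 0.15 with a library left out, turning without K450 library 2, as its KYSE450 values are at or next to 0.

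Genes called in K30LM3 over K30 numbered 1191, against 630 (pseudocount 1), 1966 (no filter), 501 (5 FPKM) and 3229 (1.5-fold). In K450LM2 over K450 they numbered 453, against 270, 748, 186 and 1025. In K450 over K30 they numbered 5203, against 3339 (5 FPKM) and 8068 (1.5-fold), and in K450LM2 over K30LM3 4463, against 6703 (no filter), 2727 (5 FPKM) and 7253 (1.5-fold). For the difference they numbered 1903, against 1036 (pseudocount 1), 1013 (5 FPKM) and 3912 (1.5-fold). The split of its calls was 560 higher and 1343 lower, against 789 and 875 with quantile normalization. The cause was not tested.

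Replicate numbers did not pair the samples (correlations of deviations -0.060 to 0.087). A replicate block changed no count of members called, at 1, 1, 5, 3 and 2 over the 5 comparisons, and gave 1211, 449, 5231, 4470 and 1903 genes called. Levels near 1 FPKM, as for CDKN1C, are limited by depth, and no interval could be given because counts were not used.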
